A study of Mus musculus with 9 samples.

Results

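Integrins are the adhesion receptors through which macrophages hold on to matrix and to other cells, and each receptor pairs an α with a β subunit. The 10 genes described here were taken by name as the macrophage integrin set: Itgam, Itgax, Itgal and Itgb2 of the leukocyte-restricted β2 class, Itga4, Itga6 and Itgb1 of the β1 class, and Itgav, Itgb3 and Itgb5 of the αV class. All 10 were listed among the 18049 genes of the deposited table, and all 10 were among the 11309 genes tested.

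Bone marrow of 8-week-old C57BL/6 mice was the source of the cultured macrophages. RNA was collected after 6 h with 1 µM 15d-PGJ2 (15-deoxy-Δ12,14-prostaglandin J2, an electrophilic cyclopentenone prostaglandin), with 1 µM of a compound labelled 15d-PGJ2-PC, or with medium only as control. Each of the 3 groups had 3 libraries, and all 9 came from the same strain with no genetic change stated. The labels do not spell out PC. Nor do they tie the 3 libraries of a group to separate cultures or animals, and the p-values therefore rest on a library-to-library spread that may be only technical. Values are FPKM, fragments scaled to gene length and sequencing depth, so levels can be compared between genes.

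Libraries held about 5.34 to 5.50 M reads, estimated from the steps between low values, and 10876 to 11026 genes at 1 FPKM or more. The macrophage label was checked against 13 listed markers, led by the lysozyme gene Lyz2. Their summed level was 7117 to 7422 FPKM in controls, 5508 to 5895 with 15d-PGJ2 and 6443 to 6608 with 15d-PGJ2-PC, and 12 of the 13 were at 1 FPKM or more in each group. T and B cell markers summed to at most 1.78 FPKM in any library. The summed levels of keratinocyte, stromal and erythroid markers were higher in every control library than in any treated one. In bulk RNA, fewer cells of a type and less RNA per cell cannot be told apart.

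As background, β2 integrins pair with α chains that include αM (CD11b, a complement receptor), αX (CD11c) and αL (CD11a, of the lymphocyte function antigen LFA-1). They bind ICAM proteins and fragments of complement C3. β1 pairs with many α chains, among them α4, which binds VCAM-1 and fibronectin, and α6, which binds laminins. αV with β3 or β5 binds vitronectin, osteopontin and other ligands with an RGD motif, and takes part in the uptake of dying cells. A cell needs both chains of a pair for the receptor to reach its surface. mRNA was measured here, not surface protein.

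On GRCm38, the assembly that mm10 names, the 3 α genes of the β2 class among the 10 lie on chromosome 7: Itgal (Entrez 16408) at 127296139 to 127335137, Itgam (Entrez 16409) at 128062640 to 128118491, and Itgax (Entrez 16411) at 128129526 to 128150657. Itgax starts 11034 bases after the end of Itgam and is transcribed on the same strand. Upstream sequences are shown for this neighbouring pair, because their levels differ so widely, for Itgb5, whose mRNA fell most with 15d-PGJ2, and for Itgb1, whose mRNA fell least among the genes that fell. RefSeq promoter windows (GRCm38.p6) were found for 6 of the 10 genes. Each sequence runs 5′ to 3′ on the plus strand and ends before the gene's first annotated base, and capitals mark matches to the motifs searched on both strands. These were the PU.1 core GAGGAA, the Sp1 box GGGCGG, the AP-1 site TGANTCA, the antioxidant response element core TGACNNNGC, the interferon-stimulated response element core, the heat shock element and the E-box CACGTG.
Itgam, chr7:128062390-128062639: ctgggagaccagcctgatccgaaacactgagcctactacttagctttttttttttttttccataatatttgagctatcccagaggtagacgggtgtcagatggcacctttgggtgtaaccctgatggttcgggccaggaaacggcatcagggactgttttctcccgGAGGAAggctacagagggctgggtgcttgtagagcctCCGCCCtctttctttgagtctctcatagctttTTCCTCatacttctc
Itgax, chr7:128129300-128129525: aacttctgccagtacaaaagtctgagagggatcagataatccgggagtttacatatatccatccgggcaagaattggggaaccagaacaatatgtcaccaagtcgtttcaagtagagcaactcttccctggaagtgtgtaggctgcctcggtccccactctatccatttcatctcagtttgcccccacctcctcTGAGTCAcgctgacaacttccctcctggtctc
Itgb5, chr16:33829415-33829664: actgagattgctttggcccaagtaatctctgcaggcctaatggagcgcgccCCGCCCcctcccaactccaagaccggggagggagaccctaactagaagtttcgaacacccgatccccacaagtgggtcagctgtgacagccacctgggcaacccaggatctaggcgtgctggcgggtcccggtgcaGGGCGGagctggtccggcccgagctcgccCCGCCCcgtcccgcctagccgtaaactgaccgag
Itgb1, chr8:128685404-128685653: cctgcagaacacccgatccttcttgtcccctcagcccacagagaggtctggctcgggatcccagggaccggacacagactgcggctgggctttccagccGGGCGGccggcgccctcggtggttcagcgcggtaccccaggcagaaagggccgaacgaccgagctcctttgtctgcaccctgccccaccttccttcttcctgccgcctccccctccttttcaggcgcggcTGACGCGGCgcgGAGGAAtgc

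The Itgam window held the PU.1 core in both orientations, at -84 to -79 and at -15 to -10 from the start, and 1 Sp1 box. PU.1 is the lineage factor of macrophages, and its core was found in 23.3% of the 32851 promoter windows of 250 bases. The Itgax window held neither and had 1 AP-1 site, a motif found in 6.75% of windows. The RefSeq start of Itgax, at 128129550, lies 24 bases inside the annotated gene, so the printed sequence stops 24 bases short of it. The AP-1 site is at -56 to -50 from that start, and at -32 to -26 from the gene's first annotated base at 128129526. Itgb5 had 3 Sp1 boxes (32.7% of windows held at least 1). Itgb1 had 1 Sp1 box, 1 PU.1 core and 1 antioxidant core, the last found in 10.2% of windows. None of the 6 windows held the interferon-stimulated core, the heat shock element or the E-box. These are matches of letters, not measured binding.

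In control macrophages the β2 class dominated. Itgb2 was the most abundant of the 10 at 326 ± 2.45 FPKM (SD, n = 3), followed by its partners Itgal at 295 ± 6.97 and Itgam at 268 ± 13.5, and by Itgb1 at 125 ± 4.73. Itgb5 stood at 66.0 ± 4.998 FPKM, Itga4 at 23.7 ± 1.27, Itgav at 19.2 ± 0.40 and Itga6 at 17.8 ± 0.30. Itgax at 1.89 ± 0.18 and Itgb3 at 0.45 ± 0.017 FPKM were far lower. Itgb2 ranked 205th of the 11309 tested genes and Itgb3 ranked 11249th. The mean of Itgam was 141 times that of its neighbour Itgax in controls, 88.4 times with 15d-PGJ2 and 108 times with 15d-PGJ2-PC. The ranges of neighbours in the control order did not overlap. With 15d-PGJ2 and with 15d-PGJ2-PC the ranges of Itgal and Itgam overlapped, and Itgav stood above Itga4 in both.

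**Figure D1:**
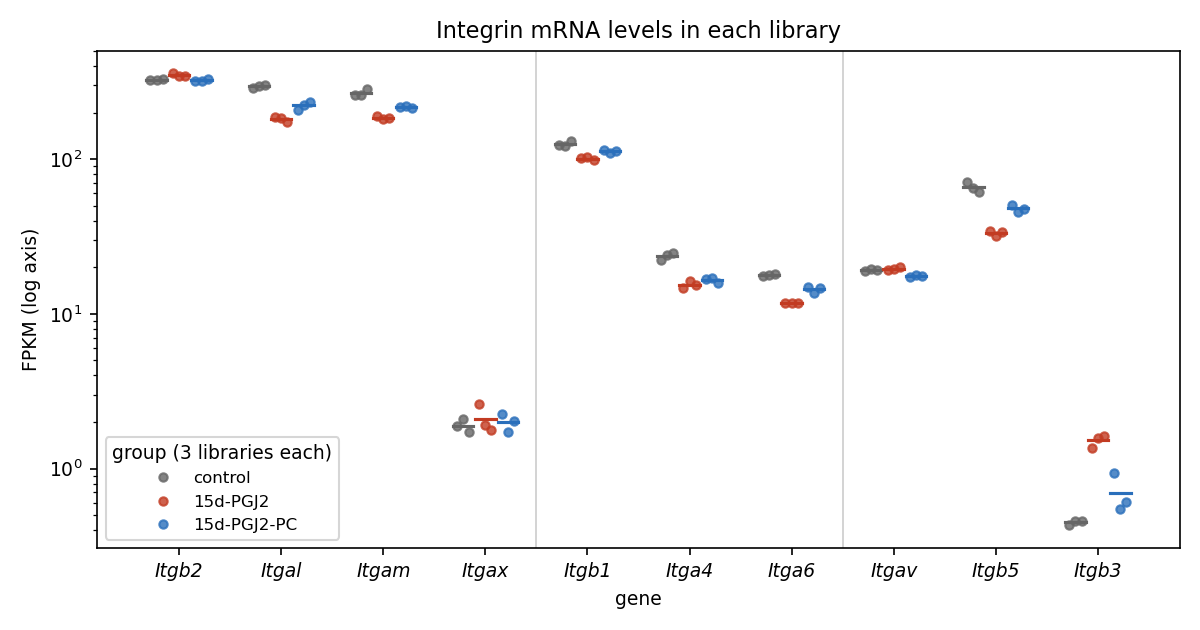
Level of each integrin mRNA in FPKM on a log axis, by gene; each point is 1 library, colours are the 3 groups, short lines are group means, and grey lines part the β2, β1 and αV classes. Itgb2 stays near the top in all 9 libraries, Itgal, Itgam and Itgb5 sit lower in both treated groups than in controls, and Itgb3 is highest with 15d-PGJ2 (1.36 to 1.63 FPKM).

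The first comparison, 15d-PGJ2 against control, asks how the prostaglandin changes macrophage transcripts. In it 6 of the 10 integrins fell (Itgb5, Itgal, Itga4, Itga6, Itgam and Itgb1), 2 rose (Itgb3 and Itgb2) and 2 did not pass (Itgav and Itgax). The median difference over the 10 was -0.42 in log2(FPKM + 1), beside -0.016 over all tested genes. Limma called 47.2% of all tested genes in this comparison, 25.0% as lower and 22.2% as higher. The libraries of the 2 groups did not overlap for 8 of the 10 integrins, beside 55.1% of all tested genes. Itgb3 passed the filter on low values only through the 15d-PGJ2 libraries, so it had to differ to be tested, and among the other 9 genes 6 fell and 1 rose. Adjusted p-values are from limma's moderated test, with Benjamini-Hochberg adjustment over all tested genes and a threshold of 0.05.

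In the β2 class both abundant α chains fell while the shared β chain did not. Itgal was at 287, 298 and 301 FPKM in control libraries, 186, 184 and 175 with 15d-PGJ2, and 209, 224 and 235 with 15d-PGJ2-PC. The 3 groups did not overlap, with controls highest and 15d-PGJ2 libraries lowest. Against control Itgal changed by -0.70 with 15d-PGJ2 (SE 0.05, limma adjusted p = 4.14e-07) and by -0.41 with 15d-PGJ2-PC (SE 0.05, limma adjusted p = 7.17e-05). Itgam was at 259, 260.5 and 283 FPKM in control libraries, 189, 182 and 185 with 15d-PGJ2, and 217, 220.3 and 214 with 15d-PGJ2-PC. Again no library of one group reached the range of another. Itgam changed by -0.53 (SE 0.04, limma adjusted p = 9.99e-07) and by -0.30 (SE 0.04, limma adjusted p = 0.000178).

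Itgb2, the only β chain these α subunits pair with, was at 324, 326 and 329 FPKM in control libraries, 358, 345 and 343 with 15d-PGJ2, and 320.4, 321 and 329.6 with 15d-PGJ2-PC. The 15d-PGJ2 libraries lay above all others, and those of 15d-PGJ2-PC overlapped the controls. The rise with 15d-PGJ2 was small, 6.92% of the control mean (log2 difference 0.10, SE 0.03, limma adjusted p = 0.0177). It did not pass without control replicate 1 (0.0507), control replicate 2 (0.051) or 15d-PGJ2 replicate 1 (0.0641), nor without the intensity trend (0.111). Against control 15d-PGJ2-PC gave -0.01, with a 95% interval of -0.08 to 0.05 (limma adjusted p = 0.8).

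Itgax, a marker often used for dendritic cells, was at 1.88, 2.08 and 1.72 FPKM in control libraries, 2.60, 1.91 and 1.78 with 15d-PGJ2, and 2.26, 1.72 and 2.03 with 15d-PGJ2-PC. All 3 groups overlapped. About 41.5 to 46.0 reads per library lie behind each group's mean, and the 95% interval of the difference ran from -0.21 to 0.39 for 15d-PGJ2 (limma adjusted p = 0.617) and from -0.25 to 0.35 for 15d-PGJ2-PC (limma adjusted p = 0.821). Changes within these intervals are therefore not excluded.

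Within a library, the 3 α chains together made 1.73 ± 0.045 times the Itgb2 level in controls, 1.06 ± 0.0075 times with 15d-PGJ2 and 1.36 ± 0.028 times with 15d-PGJ2-PC. Itgam took 46.5% to 48.4% of the summed α level in controls and 49.5% to 51.2% with 15d-PGJ2. The balance of the α chains among themselves thus moved by a few percentage points, while their control sum of 565 ± 18.9 FPKM compared with 369 ± 7.90 FPKM under 15d-PGJ2, a difference that was not tested.

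Some markers of other leukocytes that carry β2 integrins moved beside these genes. Dendritic markers, 7 listed and led by Batf3, summed to 31.8 to 32.7 FPKM in controls. Their sum was 20.6 to 23.6 FPKM with 15d-PGJ2 and 24.3 to 27.65 with 15d-PGJ2-PC. Neutrophil markers, 9 listed, summed to 39.1 to 41.5 FPKM in controls, 20.5 to 25.8 with 15d-PGJ2 and 31.6 to 35.02 with 15d-PGJ2-PC, led by S100a9 at 16.9, 7.28 and 11.01 FPKM. Of the 6 tested, 4 fell and 1 rose with 15d-PGJ2, and 1 fell and 1 rose with 15d-PGJ2-PC. The 1 that rose was Mpo, from 0.093 to 1.69 and 1.99 FPKM. Mpo passed the filter on low values only through the treated libraries, so it had to differ from control to be tested. Among macrophage markers 11 of 12 tested fell with 15d-PGJ2 and 7 of 12 with 15d-PGJ2-PC, with medians of -0.49 and -0.19. The shares called were 91.7% and 58.3%, beside 47.2% and 27.8% of all tested genes. For neutrophil markers they were 83.3% and 33.3%, the latter near the share of all tested genes. The part of these cell types in the fall of Itgam and Itgal was not tested. The T and B cell markers Pax5 and Ms4a1 were at 0 in all control libraries.

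In the β1 class all 3 genes fell with both compounds. Itga4 was at 22.2, 24.15 and 24.6 FPKM in control libraries, 14.6, 16.2 and 15.4 with 15d-PGJ2, and 16.9, 17.15 and 15.8 with 15d-PGJ2-PC. Controls lay above both treated groups, which overlapped each other. It changed by -0.59 with 15d-PGJ2 (SE 0.06, limma adjusted p = 2.12e-05) and by -0.49 with 15d-PGJ2-PC (SE 0.06, limma adjusted p = 0.000205). Itga6 was at 17.5, 17.7 and 18.1 FPKM in control libraries, 11.7, 11.7 and 11.8 with 15d-PGJ2, and 14.8, 13.7 and 14.6 with 15d-PGJ2-PC. The 3 groups stood apart, with 15d-PGJ2-PC between the other two. The differences from control were -0.56 (SE 0.05, limma adjusted p = 9.51e-06) and -0.29 (SE 0.05, limma adjusted p = 0.00252).

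Itgb1 was at 123, 122 and 130.4 FPKM in control libraries, 102, 103 and 98.1 with 15d-PGJ2, and 114, 109.9 and 113 with 15d-PGJ2-PC. The groups did not overlap, and the falls were the smallest among the 6 genes in both comparisons with control, -0.31 (SE 0.04, limma adjusted p = 6.78e-05) and -0.15 (SE 0.04, limma adjusted p = 0.0127). The call with 15d-PGJ2-PC was lost without 15d-PGJ2-PC replicate 2 (0.0507) and without the intensity trend (0.0539). Per unit of Itga4 and Itga6 together, Itgb1 stood at 3.01 ± 0.095 in controls, 3.72 ± 0.14 with 15d-PGJ2 and 3.62 ± 0.084 with 15d-PGJ2-PC. This ratio leaves out the more abundant α genes Itga9 and Itga5, so it does not give the balance of Itgb1 with all its partners. Itga9 was at 41.2, 18.8 and 28.8 FPKM in controls, 15d-PGJ2 and 15d-PGJ2-PC, and Itga5 at 29.7, 40.5 and 36.2.

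α6 is also the main laminin-binding chain of skin keratinocytes, where it pairs with β4. Of 11 listed keratinocyte markers, each had a value above 0 in at least 1 control library and 7 were at 0 in every 15d-PGJ2 library. They summed to 26.6 to 31.3 FPKM in controls, 4.52 to 6.57 with 15d-PGJ2 and 2.98 to 5.09 with 15d-PGJ2-PC. Most of the sum in the treated groups came from Sfn, which rose from 3.28 to 5.003 FPKM with 15d-PGJ2 and was at 2.77 with 15d-PGJ2-PC. Itgb4, the keratinocyte partner of α6, was at 0.15, 0.20 and 0.15 FPKM in controls and at most 0.09 in any treated library, and Itga3, another chain of epithelia, was at 0.23 to 0.30 and at most 0.11. Their part in the control level of Itga6 was not tested.

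In the αV class Itgb5 fell and Itgb3 rose with 15d-PGJ2, and Itgav did not pass. Itgb5 was at 71.4, 65.1 and 61.6 FPKM in control libraries, 34.6, 31.8 and 33.85 with 15d-PGJ2, and 50.6, 45.8 and 47.7 with 15d-PGJ2-PC. Its mean was 1.98-fold lower with 15d-PGJ2, the largest fall of the 10 genes (log2 difference -0.96, SE 0.06, limma adjusted p = 4.08e-07), and 1.37-fold lower with 15d-PGJ2-PC (-0.45, SE 0.06, limma adjusted p = 0.000317). No 2 groups overlapped. Stromal cells also carry β5: 8 stromal markers summed to 32.4 to 35.25 FPKM in controls and at most 8.91 in treated libraries, and their part was not tested.

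Itgb3, known from platelets and osteoclasts as well as macrophages, went the other way. It was at 0.43, 0.46 and 0.46 FPKM in control libraries, 1.36, 1.58 and 1.63 with 15d-PGJ2, and 0.93, 0.55 and 0.61 with 15d-PGJ2-PC. The 15d-PGJ2 libraries lay above all others, and those of 15d-PGJ2-PC also lay above the controls. The mean was 3.39-fold higher with 15d-PGJ2, from about 14.1 to about 47.8 reads per library, and differed by 0.80 in log2(FPKM + 1) (SE 0.14, limma adjusted p = 0.000886). With a pseudocount of 0.1 in place of 1 the difference was 1.56 (limma adjusted p = 0.0014), and with no filter on low values the call stood at an adjusted p of 0.000353 by limma. With 15d-PGJ2-PC the difference was 0.22, with a 95% interval of -0.10 to 0.54 (limma adjusted p = 0.293).

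Osteoclast markers, 6 listed, summed to 215 to 232 FPKM in controls and 156 to 163 with 15d-PGJ2, led by Acp5 at 162 and 116 FPKM. Of the 5 tested, 3 fell and none rose with 15d-PGJ2, and Ocstamp, which did not pass, was at 0.76 and 1.02 FPKM. The share called, 60.0%, stands beside 47.2% of all tested genes. The platelet chain gene Itga2b, the other partner of β3, was at 0.05, 0.36 and 0.16 FPKM in controls and 0.63, 0.37 and 0.26 with 15d-PGJ2. Of the platelet glycoprotein genes, Gp1bb was at 0 in all libraries of both groups, Gp9 had means of 0.68 and 0.69 FPKM, and Gp1ba was at 0.33, 0.20 and 0.46 FPKM in controls and 0.99, 0.53 and 0.66 with 15d-PGJ2. Megakaryocyte markers summed to 48.4 to 52.2 FPKM in controls and 45.7 to 57.8 with 15d-PGJ2, nearly all of it from Pf4, a chemokine gene that macrophages also express. The part of either cell type in the level of Itgb3 was not tested.

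Itgav, the shared α chain, was at 18.8, 19.6 and 19.3 FPKM in control libraries, 19.15, 19.5 and 20.2 with 15d-PGJ2, and 17.2, 17.7 and 17.5 with 15d-PGJ2-PC. Controls and 15d-PGJ2 libraries overlapped, and the difference of 0.03 had a 95% interval of -0.08 to 0.14 (limma adjusted p = 0.696). The 15d-PGJ2-PC libraries lay below all others, but the difference of -0.13 from control (95% interval -0.24 to -0.02) did not pass (limma adjusted p = 0.073). It passed with quantile normalization (0.0354) and with no filter on low values (0.0475). Itgb5 stood at 3.44 ± 0.32 times Itgav in controls, 1.70 ± 0.090 times with 15d-PGJ2 and 2.75 ± 0.18 times with 15d-PGJ2-PC. Itgb3 made up 0.60% to 0.74% of the summed Itgb3 and Itgb5 level in controls, 3.79% to 4.73% with 15d-PGJ2 and 1.19% to 1.80% with 15d-PGJ2-PC. Itgb5 thus kept over 95% of that sum in every library.

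**Figure D2:**
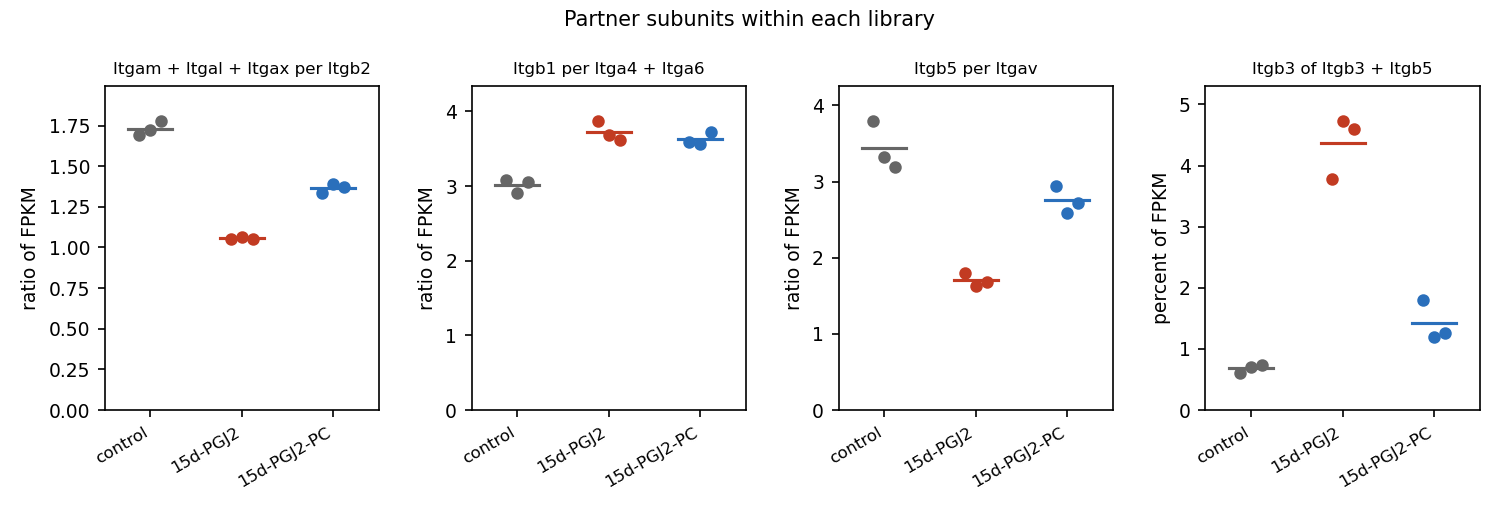
Levels of partner subunits relative to each other within each library, from FPKM; each point is 1 library, lines are group means, and all axes start at 0. The α chains per Itgb2 fall from 1.73 in controls to 1.06 with 15d-PGJ2, Itgb1 per Itga4 and Itga6 is higher in both treated groups, Itgb5 per Itgav falls from 3.44 to 1.70, and the Itgb3 share stays under 5%. The Itgb1 ratio leaves out Itga5 and Itga9.

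The second comparison, 15d-PGJ2-PC against control, had the same dose and time. Here 6 of the 10 integrins fell (Itga4, Itgb5, Itgal, Itgam, Itga6 and Itgb1), none rose and 4 did not pass (Itgb2, Itgav, Itgax and Itgb3). The median was -0.22, beside -0.0038 over all tested genes, and limma called 27.8% of all tested genes, 14.1% as lower and 13.8% as higher. The libraries did not overlap for 8 of the 10, beside 41.8% of all tested genes. The largest fall was that of Itga4, 1.43-fold from 23.7 to 16.6 FPKM, followed by those of Itgb5 and Itgal. This comparison and the first share their control libraries.

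**Figure D3:**
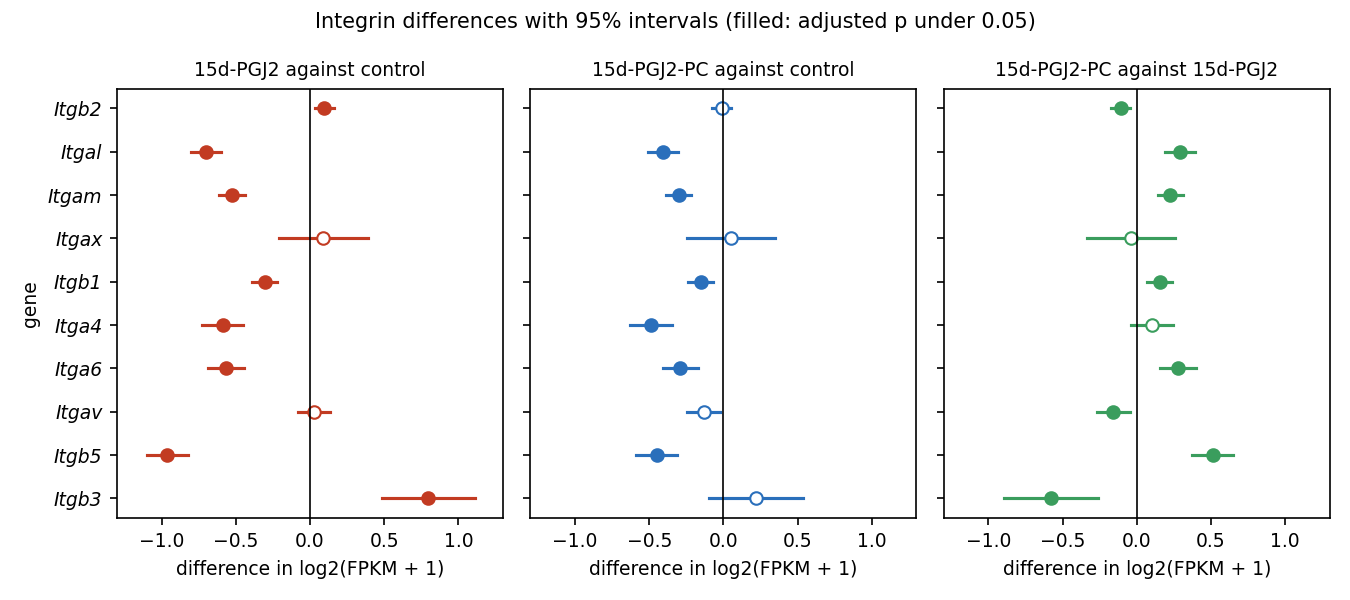
Difference of each integrin in log2(FPKM + 1) for the 3 comparisons, with 95% intervals from limma; filled points passed an adjusted p of 0.05. Itgb5, Itgal, Itga4, Itga6, Itgam and Itgb1 lie left of 0 in both comparisons with control, and Itgb3 reaches 0.80 with 15d-PGJ2.

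The third comparison set 15d-PGJ2-PC directly against 15d-PGJ2. Of the 10 integrins, 5 were higher with 15d-PGJ2-PC (Itgb5, Itgal, Itga6, Itgam and Itgb1), 3 were lower (Itgb3, Itgav and Itgb2) and 2 did not pass (Itga4 and Itgax). Limma called 20.6% of all tested genes here, 12.3% as higher and 8.3% as lower, and the median over the 10 was 0.13, beside 0.0155 over all tested genes. The libraries did not overlap for 8 of the 10, beside 37.3% of all tested genes. The count of 8 was 5 without 15d-PGJ2 replicate 1, without 15d-PGJ2 replicate 3, without 15d-PGJ2-PC replicate 1 and without 15d-PGJ2-PC replicate 2. Itgb3 is among the genes that passed the filter through the 15d-PGJ2 libraries only.

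Itgb5 differed most upward, 48.0 ± 2.46 FPKM with 15d-PGJ2-PC against 33.4 ± 1.43 with 15d-PGJ2 (log2 difference 0.51, SE 0.06, limma adjusted p = 0.000214). Itgal was 1.23-fold higher (0.29, SE 0.05, limma adjusted p = 0.0011), Itga6 likewise 1.23-fold (0.28, SE 0.05, limma adjusted p = 0.00479) and Itgam 1.17-fold (0.23, SE 0.04, limma adjusted p = 0.00189). Itgb1 was 1.11-fold higher (0.15, limma adjusted p = 0.0163), a call lost without 15d-PGJ2 replicate 3 (0.0674), 15d-PGJ2-PC replicate 1 (0.0596) or 15d-PGJ2-PC replicate 3 (0.0509) and without the intensity trend (0.0655).

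In the other direction Itgb3 was 2.19-fold lower with 15d-PGJ2-PC, 0.70 ± 0.20 against 1.52 ± 0.14 FPKM (-0.58, SE 0.14, limma adjusted p = 0.0153), though not without 15d-PGJ2-PC replicate 2 (0.0542). Itgb2 was lower by 0.11 (SE 0.03, limma adjusted p = 0.0218), a call that quantile normalization (0.233) and the lack of an intensity trend (0.133) ended, as did leaving out 15d-PGJ2 replicate 1 (0.0727), 15d-PGJ2-PC replicate 1 (0.0775) or 15d-PGJ2-PC replicate 2 (0.0776). Itgav was lower by 0.16 (SE 0.05, limma adjusted p = 0.0454), and leaving out any 1 of the 9 libraries took it past the threshold, with adjusted p from 0.0566 to 0.144. Itga4 differed by 0.10, with a 95% interval of -0.04 to 0.24 (limma adjusted p = 0.298), and Itgax by -0.04, with an interval of -0.34 to 0.26 (limma adjusted p = 0.879). These intervals do not show that the compounds act alike on the 2 genes.

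Of 16 other integrin subunits, 15 were listed and 4 were tested: Itga5, Itga9, Itga10 and Itgb7. The remaining 11 had group means of at most 0.60 FPKM. Itga9, whose chain pairs with β1, was at 41.3, 40.9 and 41.3 FPKM in controls, above Itga4 and Itga6, and at 19.0, 19.8 and 17.5 with 15d-PGJ2. It fell by 1.09 (SE 0.06, limma adjusted p = 7.08e-08) with 15d-PGJ2 and by 0.50 with 15d-PGJ2-PC (limma adjusted p = 7.51e-05). Itga5, the α chain of the classical fibronectin receptor, rose from 29.7 ± 1.19 to 40.5 ± 2.44 FPKM (0.43, limma adjusted p = 0.000163) and to 36.2 ± 2.16 with 15d-PGJ2-PC (0.28, limma adjusted p = 0.00621). Itga5 stood at 0.72 ± 0.025 times Itga9 in controls, 2.16 ± 0.17 times with 15d-PGJ2 and 1.26 ± 0.084 times with 15d-PGJ2-PC. Itga10 and Itgb7 did not pass in any comparison of the main fit. For 15d-PGJ2 against control Itga10 differed by 0.35 (limma adjusted p = 0.0727). That difference passed with no filter on low values (0.0387) and without the intensity trend (0.0149). Itga10 met the filter only through treated libraries, so it had to differ from control to be tested.

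Genes that switch integrins on and tie them to actin fell in larger number than they rose. Of 25 listed genes of activation and adhesion complexes 19 were tested: 13 fell and 2 rose with 15d-PGJ2 (median -0.41), and 12 fell and 2 rose with 15d-PGJ2-PC (median -0.25). That is 78.9% and 73.7% called, beside 47.2% and 27.8% of all tested genes. Rap1b, a small GTPase that starts inside-out activation, fell from 426 ± 1.58 to 272 ± 7.39 FPKM with 15d-PGJ2 and to 318 ± 4.91 with 15d-PGJ2-PC. Tln1, which encodes talin, the protein that binds β tails and opens the receptor, fell from 180.04 ± 5.38 to 130.4 ± 5.93 and 151 ± 3.55 FPKM. Fermt3, the kindlin of blood cells and a partner of talin at β tails, rose from 214 ± 3.93 to 239 ± 4.92 and 233 ± 1.06 FPKM. The adaptor genes Ilk, Parvg and Tns3 and the Rap1 effector gene Rassf5 fell with both compounds, by 0.59, 0.91, 0.65 and 0.80 with 15d-PGJ2. Vasp, an actin filament elongation factor, fell by 0.32, and Apbb1ip, the adaptor between Rap1 and talin, by 0.18.

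Of 16 kinases and adaptors downstream of integrins, all tested, 12 fell and 3 rose with 15d-PGJ2 (median -0.34), and 11 fell and 1 rose with 15d-PGJ2-PC (median -0.21). The shares called were 93.75% and 75.0%, beside the same 47.2% and 27.8%. The Src family kinase gene Lyn fell from 270 ± 2.06 to 151 ± 3.03 FPKM with 15d-PGJ2. Syk, a kinase that acts downstream of Src family kinases, changed by -0.41 and the exchange factor gene Vav1 by -0.65. Ptk2, which encodes focal adhesion kinase, was at 4.69, 3.93 and 4.92 FPKM in control libraries, 13.6, 16.0 and 14.4 with 15d-PGJ2, and 8.25, 8.13 and 8.70 with 15d-PGJ2-PC. It rose by 1.51 (SE 0.09, limma adjusted p = 2.07e-07) and 0.77 (limma adjusted p = 9.95e-05), while its more abundant relative Ptk2b, the Pyk2 gene, was at 118 ± 2.01 FPKM in controls and fell to 95.5 ± 2.70 with 15d-PGJ2. The adaptor genes Fyb and Lcp2 fell by 0.39 and 0.54, Fcer1g, a signalling chain used by β2 integrins, by 0.30, and Skap2 rose by 0.18. Tyrobp, the DAP12 gene, fell by 0.11 (limma adjusted p = 0.0444), a call lost in 10 of the 18 alternatives.

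Of 15 tested genes that restrain, move or accompany integrins, 6 rose and 5 fell with 15d-PGJ2 (median -0.013), and 3 rose and 3 fell with 15d-PGJ2-PC. The shares called were 73.3% and 40.0%, beside 47.2% and 27.8% of all tested genes. The tetraspanin gene Cd81, whose product associates with α4β1, rose from 105 ± 7.36 to 239 ± 5.07 FPKM and to 146 ± 3.31 with 15d-PGJ2-PC. Cd151, a tetraspanin that binds α6β1, rose from 28.8 ± 0.56 to 51.0 ± 3.23 and 44.8 ± 1.32 FPKM. Cd47, first known as an associate of αVβ3 and a signal against engulfment, fell from 116 ± 2.85 to 71.4 ± 3.66 and 88.7 ± 1.26 FPKM. Flna, whose product filamin competes with talin for β tails, fell by 0.41, and Filip1l rose by 0.64, with 15d-PGJ2.

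Genes of integrin ligands moved in both directions, and which cells in the cultures expressed them was not tested. Of 6 tested ligands of β2 and α4, 4 fell and 1 rose with 15d-PGJ2 and 2 fell with 15d-PGJ2-PC, which is 83.3% and 33.3% called, beside 47.2% and 27.8% of all tested genes. Icam1, the main ligand of αLβ2, rose from 170 ± 5.30 to 204 ± 14.7 FPKM with 15d-PGJ2 (0.26, limma adjusted p = 0.00346), whereas the complement gene C3 fell from 94.7 to 63.05 FPKM, and F11r, Icam2 and the α4 ligand gene Vcam1 fell by 0.82, 0.72 and 0.47. Of 9 tested ligands of αV and α6, 4 fell and 1 rose with 15d-PGJ2, and 3 fell and 1 rose with 15d-PGJ2-PC. The share called with 15d-PGJ2, 55.6%, is near the 47.2% of all tested genes, and with 15d-PGJ2-PC it was 44.4%, beside 27.8%. Lamc1, the γ1 chain of laminins, rose from 4.97 ± 0.35 to 10.3 ± 0.57 and 7.80 ± 0.29 FPKM. Tgfb1, which is released from its latent form by αV integrins, and Adam9 fell by 0.35 and 0.28 with 15d-PGJ2. Fn1 (fibronectin) and Thbs1 (thrombospondin) fell by 0.38 and 0.31, calls lost without control replicate 1 (0.0772) or 15d-PGJ2 replicate 3 (0.0635) for Fn1 and without 15d-PGJ2 replicate 1 (0.0528) for Thbs1. Both are also stromal products. Spp1, the osteopontin gene, was at 193, 191 and 228 FPKM in the 3 groups and Adam15 at 109, 115 and 116. Neither passed in the main fit. Without 15d-PGJ2-PC replicate 3, Spp1 passed for 15d-PGJ2-PC against control (limma adjusted p = 0.0116) and against 15d-PGJ2 (0.0123). The latter also passed without 15d-PGJ2 replicate 3 (0.03). Adam15 passed against control with quantile normalization (0.0195 for 15d-PGJ2, 0.0311 for 15d-PGJ2-PC). With median-of-ratios scaling it passed for 15d-PGJ2 (0.0357).

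**Figure D4:**
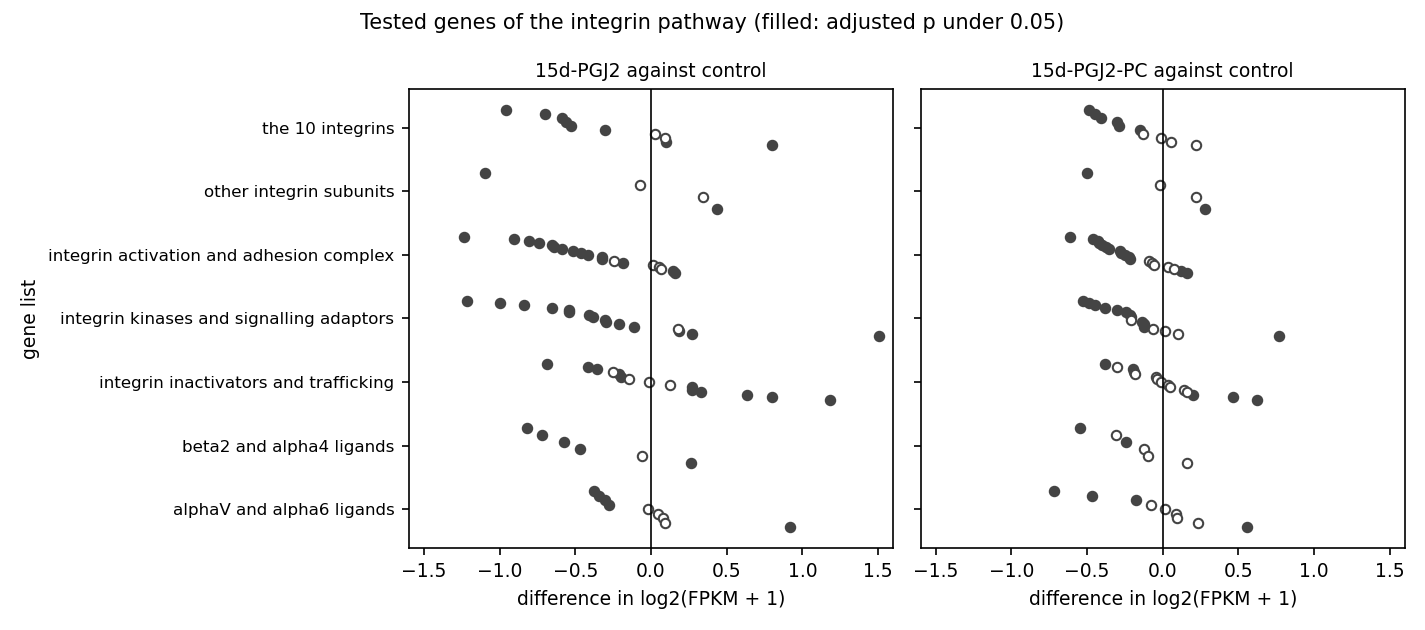
Difference in log2(FPKM + 1) against control of every tested gene in 7 lists, with 15d-PGJ2 at left and 15d-PGJ2-PC at right; each point is 1 gene, and filled points passed an adjusted p of 0.05. Most genes of the activation and kinase lists lie left of 0, and the point farthest right among the kinases is Ptk2, at 1.51 and 0.77.

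For each β chain the tested genes with the most similar levels over the 9 libraries were found by Pearson's r of log2(FPKM + 1). The points share 3 treatment groups, so r mostly reflects the order of those groups. Itgb5 was closest to C1qa, a complement C1q chain (r = 0.997), Zfp385a (0.994) and Twf2 (0.993), and 617 genes exceeded an r of 0.95 with it. Itgb1 was closest to Parp9, Cdip1 and Ap3m2 (0.989 each), with 432 genes above 0.95. Itgb3 was closest to Fkbp1a (0.980), Hspa1l (0.979) and Fkbp4 (0.978), with 70 genes above 0.95. Hspa1l had means of 0.23, 2.43 and 0.73 FPKM in controls, 15d-PGJ2 and 15d-PGJ2-PC. Like Itgb3, it could not pass the filter on low values without 15d-PGJ2 libraries, so the filter itself favoured their likeness. For Itgb2 only 4 genes did so, led by Bcap31 (0.969), Def8 (0.967) and Ap5b1 (0.965).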

How the data were processed

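The authors deposited 1 table of FPKM values (2 decimals) for 9 libraries, per the file headers. Alignment with BWA to mm10 comes from the submitters' processing notes; for its version and the counting tool, the sources used here give nothing. All value columns were used. Depth was estimated as the number of reads per library that brought most low values of genes with 1 transcript within 0.1 of whole reads (61.6% to 65.0% of them, against a median of 15.0% to 16.2% over other depths), with transcript lengths from GENCODE M21. A gene was tested if 3 or more libraries reached 1 FPKM, on log2(FPKM + 1), which understates fold changes of low genes, with limma 3.58.1 (R 4.3.3): moderated test, intensity trend, 2-sided, all 9 libraries in 1 fit, no covariate, Benjamini-Hochberg over 11309 genes per comparison. The code was tested on simulated data. Values are means ± SD (n = 3) and differences carry standard errors (SE).

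The members and gene lists were chosen with earlier results of these data known. Named were all 10 members, the up to 5 members of each other list with the smallest p in any comparison, those at 100 FPKM or more in any group, and the 3 genes most like each β chain. Some genes that met this rule are not reported here. Fkbp1a and its near copies and Hspa1l and its relatives may share reads. Alternatives were other pseudocounts (0.1, 0.5), a filter of 5 FPKM or none, other scalings (quantile, median of ratios), no intensity trend, a fit of the compared libraries alone, a replicate block, and leaving out each library.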

Additional observations from a re-analysis of the deposited data

How the results depend on the processing

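Over 18 alternatives, 491 of 525 member results kept their direction and side of the threshold. Itgam, Itgal, Itgb5, Itga4 and Itga6 stayed called as lower than control with both compounds in all 18, and Itgb1 in all 18 with 15d-PGJ2 and 16 with 15d-PGJ2-PC. Leaving out 1 library at a time gave 6 to 8 changed integrins for 15d-PGJ2 against control, 5 to 6 for 15d-PGJ2-PC against control and 5 to 7 for 15d-PGJ2-PC against 15d-PGJ2. Itgb3 was not tested without any 15d-PGJ2 library or at a filter of 5 FPKM, nor Itgax at that filter; where a library is left out, its group has 2. Signs changed only for results that had not passed. Leaving out 1 library at a time, Itgax ran from -0.0228 to 0.1636 for 15d-PGJ2, from -0.0094 to 0.1212 for 15d-PGJ2-PC and from -0.1119 to 0.0745 between the compounds. Itgb7 ran from -0.1325 to 0.0275, from -0.1608 to 0.0998 and from -0.0899 to 0.1706. Spp1 ran from -0.1027 to 0.0646 for 15d-PGJ2, and Adam15 from -0.0110 to 0.0212 between the compounds. Itgb2 stood at 0.0314 for 15d-PGJ2-PC with quantile normalization, and Adam15 at -0.0170 between the compounds with median-of-ratios scaling. The cause was not tested.

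Libraries with the same replicate number did not deviate together (r of -0.043 to 0.052 over 9 pairs, -0.07 to 0.098 over the other 18), so the numbers were not taken as pairs. With the replicate block 8, 6 and 7 integrins changed in the 3 comparisons and 5272, 3041 and 2215 genes overall. Depth limits Itgb3 and Itgax, with about 14.1 and 41.5 reads per control library.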
